A study of Mus musculus with 4 samples.

Results

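The genes described here are 8 isozymes of 4 steps of glycolysis: the hexokinases Hk1 and Hk2, the phosphofructokinases Pfkl and Pfkp, the aldolases Aldoa and Aldoc, and the pyruvate kinases Pkm2 and Pklr. They were chosen by name, as all array features carrying one of these gene names, and all 8 were found among 30038 gene names, with 19 of 41174 probes. RNA had been hybridised to 4 one-colour Agilent mouse arrays, 2 carrying RNA of fetal hepatoblasts, taken at embryonic day 13 (E13), and 2 carrying RNA of adult hepatocytes, taken at an age of 8 weeks. Every sample came from C57BL/6NCr mice. No genetic change or treatment is named for either group, and neither the isolation of the cells nor the number of animals behind a sample is given in the sources used here. Nothing says that replicates are separate animals, so the p-values reflect sample-to-sample spread alone, and that spread may be technical.

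Glycolysis converts glucose to pyruvate, and several of its enzymes exist as isozymes encoded by separate genes. Hexokinase commits glucose to the cell, phosphofructokinase is the main controlled step, aldolase splits the sugar bisphosphate, and pyruvate kinase makes the final ATP. The mature liver is known for its own set of isozymes, among them liver phosphofructokinase (Pfkl) and liver pyruvate kinase (Pklr), whereas Hk1, Hk2, Aldoa and the gene now named Pkm (Pkm2 on this array) are typical of growing and many non-hepatic cells. Pkm yields the splice forms PKM1 and PKM2, and the probes were not assigned to a splice form here. Pklr has a liver and a red cell form that start at separate promoters.

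The probe sequences of 3 members are shown, that of Pklr, which has 1 probe, and 1 each of Hk1 and Pfkp, whose probes differed in size or call, because each signal belongs to these 60 bases and not to the whole transcript. They are written 5′ to 3′ as in the array files, in lower case throughout since no part is singled out. The Hk1 probe lay on chromosome 10 at 61734377 to 61734436 (mm9, minus strand). The Pklr probe spanned 519 bases of chromosome 3 from 88948907 to 88949425 (mm9, plus strand), and this Pfkp probe 2155 bases of chromosome 13 from 6581718 to 6583872 (mm9, minus strand). Both spans exceed the probe length, so each is placed across a gap in the genome. No annotation of mm9 was used, so exons and UTRs are not named.
Hk1 probe A_51_P249024: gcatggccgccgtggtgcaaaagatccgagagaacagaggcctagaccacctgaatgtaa
Pklr probe A_51_P176042: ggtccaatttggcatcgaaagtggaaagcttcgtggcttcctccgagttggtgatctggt
Pfkp probe A_51_P378856: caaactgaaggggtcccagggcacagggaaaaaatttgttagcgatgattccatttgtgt

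The scanner software marked 23762 and 23040 probes of the E13 arrays, and 20039 and 19298 of the adult arrays, as well above background, no spot was saturated, and the 2 arrays within a group had a Pearson correlation of 0.991 (E13) and 0.989 (adult). The hepatoblast markers Afp, Dlk1, Igf2 and H19 were all called higher in E13 hepatoblasts and all 8 hepatocyte markers higher in adult hepatocytes, as the labels state, while Epcam was not tested. The E13 arrays differed in markers of other cells. All 8 tested erythroid markers were higher on E13 replicate 1 than on replicate 2, with a summed signal of 199 against 48.5 and 21.6 to 29.2 on the adult arrays (in units of the array's 75th percentile). Of these 8, 6 were called higher in E13 hepatoblasts, Klf1 was not called, and Alas2, whose log2 signal of 4.69 and 4.34 made up most of the adult sum, was called 24.6-fold higher in adult hepatocytes. Also higher on E13 replicate 1 were 4 of 4 megakaryocyte, 5 of 6 macrophage and leukocyte, 4 of 5 mesenchymal and 3 of 4 endothelial markers. The counts were 3 of 4 for bile duct, 3 of 4 for dividing cells, 5 of 8 for hepatocyte and 0 of 4 for hepatoblast markers. Megakaryocyte markers (4 of 4 tested) summed to 21.2 to 39.9 on the E13 arrays and 0.106 to 0.126 on the adult arrays, where none of them was well above background. Mesenchymal markers summed to 23.2 to 27.6 and 7.29 to 8.41, and macrophage and leukocyte markers to 0.775 to 1.54 and 3.49 to 3.77 (Ptprc, the pan-leukocyte marker, was not tested because neither group showed it well above background on both arrays). Endothelial markers summed to 0.395 to 1.06 and 2.31 to 2.38 (Kdr and Stab2 called higher in adult hepatocytes, Cdh5 and Tek not called, Pecam1 and Lyve1 not tested). Bile duct markers summed to 0.557 to 0.657 and 2.43 to 3.93 (Spp1 called higher in adult hepatocytes, Krt19, Krt7 and Sox9 not called). Markers of dividing cells summed to 51.9 to 55.4 in E13 and 0.275 to 0.289 in adult samples, where Mki67 was well above background but Top2a, Ccnb1 and Cdk1 were so on neither array. The part of these other cells and of cell division in the differences below was not tested. In such bulk RNA, fewer cells of a type and less RNA per cell cannot be told apart.

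The design sets the hepatocytes of grown mice against the fetal hepatoblasts. Of the 8 isozymes, 6 were called higher in E13 hepatoblasts (Hk1, Hk2, Pfkl, Aldoa, Aldoc and Pkm2), 0 higher in adult hepatocytes and 2 neither (Pfkp and Pklr). Of all genes tested, 32.8% were called higher in E13 hepatoblasts and 32.1% in adult hepatocytes, 64.8% in either direction. The 4 arrays of a gene did not overlap between groups in 6 of the 8 members and in 85.8% of all genes tested. The members were chosen with earlier results of these data known, so their count is a description. A call is a Benjamini-Hochberg adjusted p under 0.05 over 16421 genes in limma, and 0 members were higher in adult hepatocytes at an unadjusted p under 0.05 as well. The median log2 difference of the 8 was -1.27, against -0.0099 over all genes tested. Values below are the log2 signal of the brightest tested probe after subtracting each array's 75th percentile, a log2 difference is adult minus E13 with its standard error, and levels of different genes are not compared, since probes differ in brightness. At each of the 4 steps at least 1 listed form was lower in adult hepatocytes, and at none was a listed form called higher. The members include no form typical of mature liver at the hexokinase and aldolase steps. A gain of such a form could therefore not appear there, and whether the set switches as a whole cannot be read from it.

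**Figure D1:**
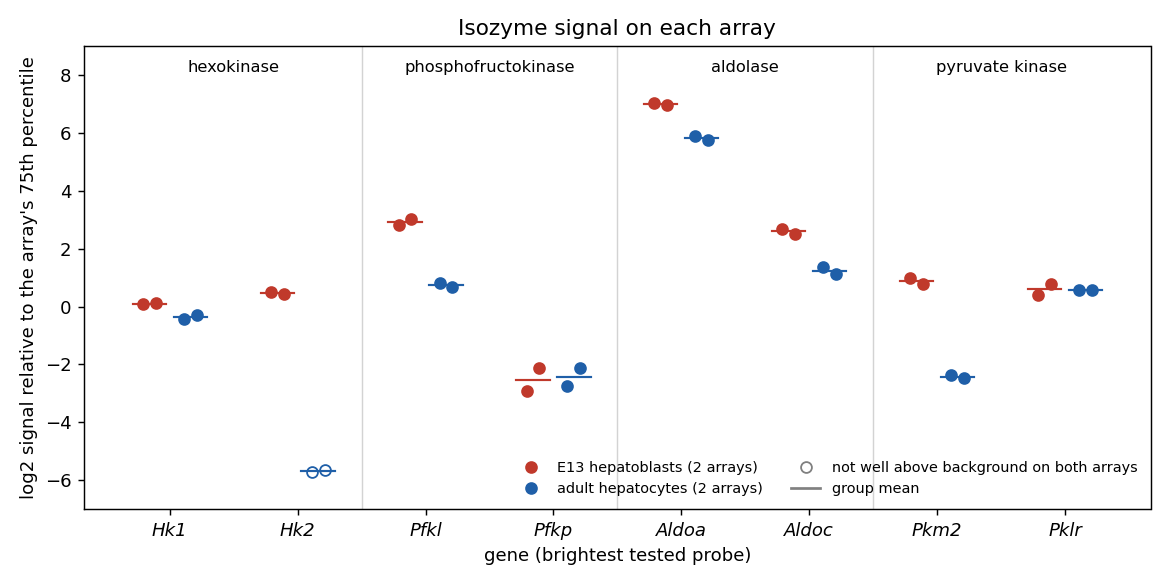
Log2 signal above or below each array's 75th percentile (vertical axis) of the 8 isozymes (horizontal axis, brightest tested probe) on the 2 E13 arrays (red) and the 2 adult arrays (blue), with group means as lines and open points where a probe was not well above background on both arrays of the group. Hk2 and Pkm2 show the widest gaps between the groups, while the arrays of Pfkp and Pklr overlap.

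Hexokinases were the step with the widest differences. Hk2, the inducible hexokinase of muscle and dividing cells that binds mitochondria, had a log2 signal of 0.52 and 0.43 on the E13 arrays and -5.71 and -5.66 on the adult arrays, where it was not well above background. Both E13 arrays lay far above both adult arrays, a result that rests on 1 probe. Hk2 was thus at least 15.2-fold lower in adult hepatocytes, a bound that sets the adult level at the lowest signal well above background on each adult array. The fitted log2 difference was -6.15 (limma adjusted p = 4.96e-05). That p rests on adult values not well above background and does not measure the bound. The bound belongs to this processing: with normexp correction, which adds an offset to every signal, the log2 difference was -2.55, smaller than the bound of -3.93.

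Hk1, the widely expressed hexokinase that also serves red cells, was 0.074 and 0.13 on the E13 arrays and -0.43 and -0.29 on the adult arrays. The groups did not overlap, and the difference was 1.38-fold, a log2 difference of -0.46 ± 0.15 (limma adjusted p = 0.0461). This call was lost with normexp background correction (limma adjusted p = 0.0649), without a filter on dim probes (0.0679), with the replicate number as a block (0.118) and on leaving out any of the 4 arrays (0.0575 to 0.191). The other probes of Hk1 gave other sizes. Probe A_52_P102773, on chromosome 10 at 61731916 to 61731975 (mm9, minus strand), was 1.28 and -0.16 on the E13 arrays and -3.13 and -2.56 on the adult arrays, a log2 difference of -3.41 ± 0.52 (limma adjusted p = 0.00448 over 23462 probes). Its level on E13 replicate 1 was well above that on replicate 2. Most markers of blood-forming, endothelial and mesenchymal cells were also higher on E13 replicate 1, and a link was not tested. Without E13 replicate 1 the log2 difference of this probe was -2.69, without E13 replicate 2 it was -4.12, and with normexp correction -2.16. Probe A_52_P674530 was -3.01 and -3.83 on the E13 arrays and -4.93 and -5.08 on the adult arrays. It was not well above background on the adult arrays. The bound there is only -0.036 on the log2 scale (1.03-fold), against an E13 SD of 0.58. Limma called the fitted difference of -1.58 (adjusted p = 0.00946), a p that does not measure the bound. With normexp correction the sign turned to 0.23 and the call was lost (limma adjusted p = 0.272). The remaining 3 of the 6 Hk1 probes were well above background on at most 1 array and were not tested.

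Hkdc1, a further hexokinase-related gene, was 4.32 and 4.34 on the E13 arrays and -5.81 and -5.08 on the adult arrays. It was not well above background on the adult arrays and at least 221-fold lower there. This is a bound of -7.79 on the log2 scale, against a difference of -6.27 with normexp correction. The limma adjusted p of 7.1e-05 belongs to the fitted difference of -9.78 and does not measure the bound. Hk3, the hexokinase of myeloid cells, was well above background on no array and was not tested.

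Phosphofructokinase changed in Pfkl. Pfkl, the liver-type subunit, was 2.80 and 3.03 on the E13 arrays and 0.82 and 0.67 on the adult arrays. It was 4.51-fold lower in adult hepatocytes, with a log2 difference of -2.17 ± 0.16 (limma adjusted p = 0.000609) and no overlap between the groups. The subunit named for liver was therefore higher in fetal than in adult cells, a result that rests on 1 probe.

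Pfkp, the platelet-type subunit, was -2.92 and -2.13 on the E13 arrays and -2.73 and -2.11 on the adult arrays. The groups overlapped and no difference was called, at a log2 difference of 0.11 ± 0.36 (limma adjusted p = 0.803). This sign turned to -1.22 and the gene was called with spike-in scaling (limma adjusted p = 0.0115), which lowers every log2 difference by 1.33, and it was also negative with the mean of its probes (-0.24) and without E13 replicate 1 (-0.29) or adult replicate 2 (-0.20). Its probe A_51_P378856 was -3.52 and -3.73 on the E13 arrays and -4.37 and -4.07 on the adult arrays, where it was not well above background, and where the lowest signal well above background lay above its E13 mean, so no fold is given, although limma called it higher in E13 hepatoblasts (adjusted p = 0.042). With normexp correction it was called the other way (limma adjusted p = 0.0322). The call was lost with the replicate block (limma adjusted p = 0.0862), quantile normalization (0.0934), no filter (0.0523) or a trended, robust variance (0.110), and without E13 replicate 1 (0.188), E13 replicate 2 (0.0989) or adult replicate 1 (0.118). Pfkm, the muscle-type subunit, was 1.61 and 1.72 on the E13 arrays and 2.08 and 2.07 on the adult arrays, and its log2 difference of 0.41 ± 0.14 was not called (limma adjusted p = 0.0571) and turned to -0.92 with spike-in scaling (called, limma adjusted p = 0.00443). It was called higher in adult hepatocytes among probes well above background on all arrays (limma adjusted p = 0.0414) and with a trended, robust variance (0.0253).

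Both aldolases of the list were lower in adult hepatocytes. Aldoa, the muscle and red cell form that is also the common fetal form, was 7.03 and 6.97 on the E13 arrays and 5.90 and 5.75 on the adult arrays. The groups did not overlap, and the difference was 2.26-fold, a log2 difference of -1.18 ± 0.15 (limma adjusted p = 0.00267), which was -1.80 with quantile normalization. Its second probe gave -1.15 ± 0.17, although the probes share a run of 27 bases and are not independent. Aldoc, the brain form, was 2.69 and 2.52 on the E13 arrays and 1.35 and 1.13 on the adult arrays. It was 2.58-fold lower in adult hepatocytes, a log2 difference of -1.37 ± 0.17 (limma adjusted p = 0.00243). Its second probe was well above background on no array, and tested without that filter it went the other way (1.24, limma adjusted p = 0.0106).

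Pyruvate kinase changed in Pkm2. Pkm2 was 0.98 and 0.78 on the E13 arrays and -2.38 and -2.46 on the adult arrays, with no overlap. It was 9.87-fold lower in adult hepatocytes, a log2 difference of -3.30 ± 0.16 (limma adjusted p = 0.000181), which was -2.36 with normexp correction. A second probe lay on chromosome 9 at 59526759 to 59526818 (mm9, plus strand), 148 bases from the brightest. It was 0.26 and 0.0085 on the E13 arrays and -3.84 and -4.27 on the adult arrays, where it was not well above background. The bound on its log2 difference was -3.59, against a difference of -1.93 with normexp correction. The limma adjusted p of 0.00018 over all probes belongs to the fitted difference of -4.19 and does not measure the bound. The last Pkm2 probe was well above background on no array.

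Pklr, the liver and red cell pyruvate kinase, was 0.41 and 0.79 on the E13 arrays and 0.57 and 0.57 on the adult arrays. The adult arrays lay between the E13 arrays, and the log2 difference of -0.034 ± 0.19 was not called (limma adjusted p = 0.883). With spike-in scaling it was -1.36 and called (limma adjusted p = 0.0012), and without E13 replicate 2 it was 0.16. Pklr was lower on E13 replicate 1, the array with more signal of blood-forming, endothelial and mesenchymal markers, than on replicate 2, and a link was not tested. The result rests on 1 probe.

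**Figure D2:**
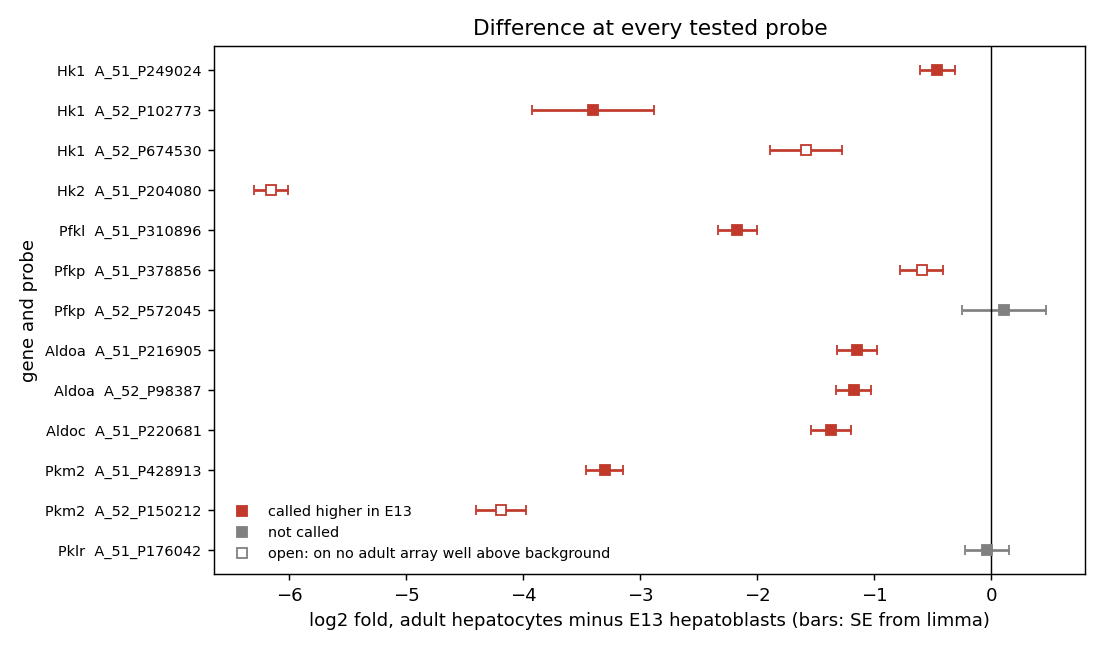
Log2 difference, adult minus E13 (horizontal axis, bars are the SE from limma), of the 13 tested probes of the 8 isozymes (vertical axis), red where called higher in E13 hepatoblasts, grey where not called, and open where the probe was on no adult array well above background, so that the plotted value is only a fitted one. The probes of Hk1 spread from -0.46 to -3.41, whereas those of Aldoa lie at -1.15 and -1.18.

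Counted by probe, 11 of the 13 tested probes were called higher in E13 hepatoblasts and 0 higher in adult hepatocytes by limma, where 32.9% and 30.7% of all probes tested were called in these directions and 63.6% in either. The remaining 6 of the 19 probes did not pass the filter. To pass, a probe had to be well above background in both samples of either group, and 4 of the 11 called probes passed through the E13 arrays alone, among them the Pfkp probe for which no bound can be given.

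The balance of isozymes at a step was measured as the difference of their log2 signals within an array, whose shift between groups is untouched by scaling an array with a constant. The level of such a difference depends on the probes and is not read; only its shift is. With 2 arrays against 2, an exact two-sided permutation test cannot give a p under 0.333, the value it gave for each of the 4 pairs, so that test separates nothing here and the shifts are given with their spread as descriptions. Pklr minus Pkm2 was -0.57 and 0.015 on the E13 arrays and 2.95 and 3.03 on the adult arrays, a shift of 3.27 towards Pklr with a pooled SD of 0.30. Pyruvate kinase thus shifted towards Pklr by 9.64-fold, while Pklr itself was not called. This shift was 2.29 with normexp correction.

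Aldoa minus Aldoc shifted by 0.19 (pooled SD 0.068), 4.34 and 4.45 against 4.55 and 4.63, and by -0.29 with quantile normalization, so the order of these 2 changes is not settled. Pfkl minus Pfkp was 5.73 and 5.16 on the E13 arrays and 3.54 and 2.78 on the adult arrays, a shift of -2.28 towards Pfkp (pooled SD 0.47). Hk1 minus Hk2 shifted towards Hk1 by at least 3.47, where Hk2 on the adult arrays is set to the lowest signal well above background, and by 2.20 with normexp correction, less than that bound.

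**Figure D3:**
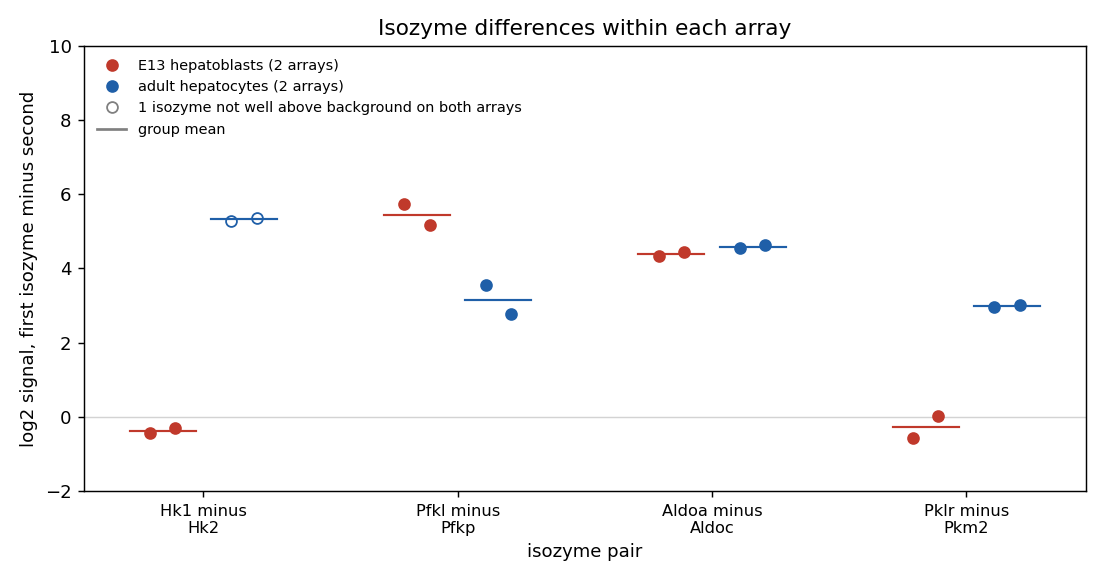
Difference of the log2 signals of a pair of isozymes within an array (vertical axis) for 4 pairs (horizontal axis) on the 2 E13 arrays (red) and the 2 adult arrays (blue), with group means as lines and open points where 1 isozyme was not well above background on both arrays of the group. Pklr minus Pkm2 moves from -0.28 to 2.99 on average, while Aldoa minus Aldoc moves from 4.39 to 4.59.

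The other genes of the pathway moved in both directions. Of 23 genes in 3 lists (other isozymes of these steps, the other steps, and regulators), 21 were tested, and 11 were called higher in E13 hepatoblasts, 5 higher in adult hepatocytes and 5 neither, where 32.8% and 32.1% of all genes tested were called in these directions and 64.8% in either. These counts describe the lists, which were not tested against other genes. The count higher in E13 hepatoblasts was 7 without E13 replicate 2. Of the 10 genes of the other steps 9 were tested, with 4 higher in E13 hepatoblasts (Gpi1, Pgk1, Pgam2 and Eno3), 1 higher in adult hepatocytes (Bpgm) and 4 neither (Tpi1, Gapdh, Pgam1 and Eno1), and a median log2 difference of -0.51. Eno2, the neuronal enolase, was well above background on no array.

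In the main processing Pgam2 and Eno3 had the widest differences of this list, and with normexp correction Pgam2 fell behind Eno1, Pgk1 and Gpi1. Pgam2, muscle phosphoglycerate mutase, was -1.55 and -1.42 on the E13 arrays and -3.25 and -3.63 on the adult arrays, of which 1 was well above background, a log2 difference of -1.95 ± 0.19 (limma adjusted p = 0.00125) that was -0.61 with normexp correction. Eno3, muscle enolase, was 0.91 and 1.04 on the E13 arrays and -0.33 and -0.54 on the adult arrays, a log2 difference of -1.41 ± 0.16 (limma adjusted p = 0.00198). Their common counterparts Pgam1 (-0.39 ± 0.15, limma adjusted p = 0.0769) and Eno1 (-0.66 ± 0.27, limma adjusted p = 0.0875) were not called, but both were called higher in E13 hepatoblasts with normexp correction (limma adjusted p = 0.0095 and 0.00785), quantile normalization (0.00359 and 0.0498), spike-in scaling (0.000459 and 0.000661) and a trended, robust variance (0.0263 and 0.0457). Eno1 was also called without E13 replicate 1 (limma adjusted p = 0.0309) and stood at -0.32 without E13 replicate 2. Muscle and common forms were not tested against each other. Gapdh was 7.87 and 8.15 on the E13 arrays and 7.77 and 7.83 on the adult arrays, which was not called (limma adjusted p = 0.313). It was called higher in E13 hepatoblasts with quantile normalization and spike-in scaling, as was Tpi1, which was also called with normexp correction (limma adjusted p = 0.0479). Bpgm, which makes the bisphosphoglycerate of red cells, was 0.076 and 0.0045 on the E13 arrays and 0.71 and 0.76 on the adult arrays, 1.62-fold higher (limma adjusted p = 0.0119), a direction that turned to -0.64 with spike-in scaling and a call that did not hold when E13 replicate 1 (0.0617) or E13 replicate 2 (0.0788) was left out. The calls of Gpi1 (limma adjusted p = 0.0458) and Pgk1 (0.0383) were lost with the replicate block (0.106 and 0.0839), without a filter on dim probes and on leaving out either E13 array or adult replicate 1. The array files place both Pgk1 probes on chromosome 3, while the RefSeq table (GRCm38.p6) has Pgk1 on chromosome X, so signal of a near-identical copy cannot be told apart.

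Regulators moved in both directions. Of the 10 regulators, 6 were called higher in E13 hepatoblasts, 4 higher in adult hepatocytes and 0 neither, with a median log2 difference of -1.02. Gckr, a nuclear regulatory protein of hepatocytes, was 4.60 and 4.30 on the E13 arrays and 6.42 and 6.55 on the adult arrays, a log2 difference of 2.04 ± 0.18 (limma adjusted p = 0.000887) that was 1.41 with quantile normalization. Mlxipl, the carbohydrate response factor that drives Pklr in liver, was 3.77 and 3.91 on the E13 arrays and 5.85 and 5.43 on the adult arrays, 3.48-fold higher (limma adjusted p = 0.00183). The call of Mlxipl was lost with spike-in scaling (0.47, limma adjusted p = 0.114).

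The Pfkfb genes encode the enzymes that make and remove fructose bisphosphate in its regulatory form, an activator of phosphofructokinase. Pfkfb1, the liver form, was 1.44 and 1.18 on the E13 arrays and 3.17 and 3.36 on the adult arrays, a log2 difference of 1.96 ± 0.17 (limma adjusted p = 0.000968). Pfkfb2, the heart form, followed at 1.46 ± 0.21 (limma adjusted p = 0.00441), a call lost with spike-in scaling (0.13, limma adjusted p = 0.636). Pfkfb3, the inducible form of growing cells, was 3.27 and 3.34 on the E13 arrays and 0.32 and 1.11 on the adult arrays, a log2 difference of -2.59 ± 0.30 (limma adjusted p = 0.00202). All 3 of its probes were called, but 2 of them passed the filter through the E13 arrays alone. Pfkfb4 was lower in adult hepatocytes as well (-2.40 ± 0.29, limma adjusted p = 0.00231), at -1.10 with normexp correction. In this family 2 genes were thus higher on the adult arrays and 2 on the E13 arrays.

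Hif1a, the hypoxia-responsive activator of glycolytic genes, was 1.10 and 0.86 on the E13 arrays and 0.13 and 0.37 on the adult arrays (log2 difference -0.73 ± 0.18, limma adjusted p = 0.0213). Its call was lost with the replicate block (0.0510) and on leaving out either E13 array (0.115 and 0.0598) or adult replicate 1 (0.0644). The splicing factors known to favour the PKM2 form of Pkm were all called higher in E13 hepatoblasts. Hnrnpa1 was 4.37 and 4.61 on the E13 arrays and 1.69 and 1.97 on the adult arrays, 6.31-fold lower in adult hepatocytes (limma adjusted p = 0.000482). All 4 of its probes were called this way, but 1 of them passed the filter through the E13 arrays alone. Ptbp1 was 2.51-fold lower (limma adjusted p = 0.00273). Hnrnpa2b1 was 2.48-fold lower (limma adjusted p = 0.0121), although its second probe was not called at -0.010 and leaving out E13 replicate 1 (0.0623) or E13 replicate 2 (0.0612) ended the call.

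**Figure D4:**
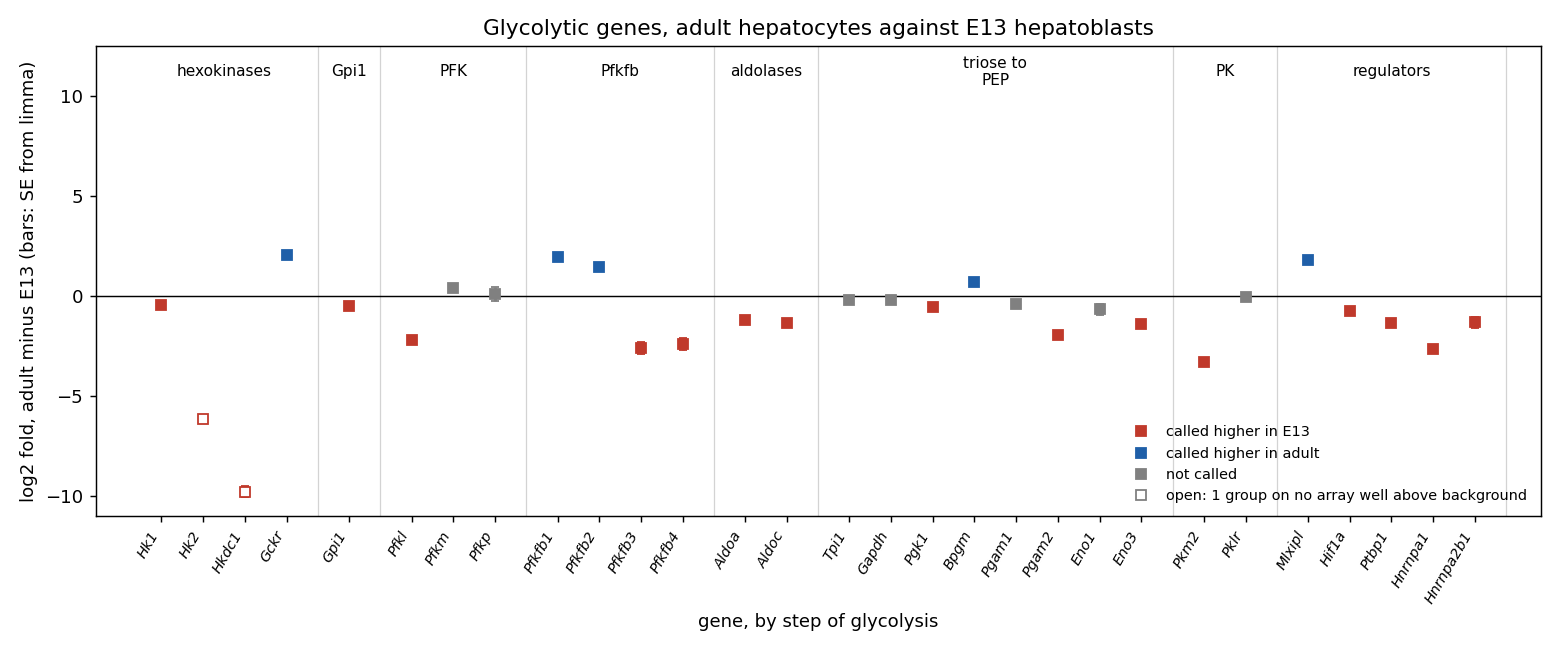
Log2 difference, adult minus E13 (vertical axis, bars are the SE from limma), of the tested glycolytic genes by step (horizontal axis), red where called higher in E13 hepatoblasts, blue where called higher in adult hepatocytes, grey where not called, and open where 1 group was on no array well above background, so that the plotted fold is a fitted value. Hkdc1 at -9.78 and Hk2 at -6.15, both at the hexokinase step, lie lowest.

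Promoter windows of the 8 members were compared because 6 of them differed in the same direction. RefSeq windows (GRCm38.p6) were found for all 8, 14 windows in all. The 250 bases before each start were searched on both strands for ACGTG, 1 form of the core of the hypoxia response element. They were also searched for CACGTG, the E-box at the core of carbohydrate response elements, which contains ACGTG. The form of the hypoxia core that starts with G (GCGTG) was not searched for. A window without ACGTG may therefore still hold a hypoxia core. Of the 14 windows, 4 held ACGTG, in Hk2, Aldoa and Pkm2, and 0 held CACGTG. No window of Hk1, Pfkl or Aldoc, which were also called higher in E13 hepatoblasts, held either motif, nor did those of Pfkp and Pklr. Over all 32851 windows 16.6% held ACGTG and 6.02% CACGTG. A match is a run of letters and not a shown site, and windows of 1 gene can overlap, as those of Aldoa do. The Aldoa windows with a match hold 1 and the same match, 126 and 202 bases before their starts, so it is counted in each. Hk2, the member with the widest difference, held ACGTG at 226 and 52 bases before its start, on the other strand and so printed as CACGT. Its sequence is set beside both windows of Pklr, which was not called, as an illustration and not as a test. Capitals mark the matches.
Hk2, chr6:82774455-82774704, minus strand: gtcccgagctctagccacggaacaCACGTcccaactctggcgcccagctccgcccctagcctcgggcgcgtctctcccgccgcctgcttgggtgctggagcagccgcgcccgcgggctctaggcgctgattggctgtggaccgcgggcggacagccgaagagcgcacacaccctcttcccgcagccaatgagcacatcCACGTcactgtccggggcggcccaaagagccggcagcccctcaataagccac
Pklr upstream start, chr3:89135892-89136141, plus strand: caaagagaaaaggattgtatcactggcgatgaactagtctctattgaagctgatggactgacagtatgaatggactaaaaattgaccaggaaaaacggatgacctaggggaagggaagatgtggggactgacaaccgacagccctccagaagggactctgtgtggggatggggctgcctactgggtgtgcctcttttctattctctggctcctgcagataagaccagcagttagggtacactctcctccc
Pklr downstream start, chr3:89136373-89136622, plus strand: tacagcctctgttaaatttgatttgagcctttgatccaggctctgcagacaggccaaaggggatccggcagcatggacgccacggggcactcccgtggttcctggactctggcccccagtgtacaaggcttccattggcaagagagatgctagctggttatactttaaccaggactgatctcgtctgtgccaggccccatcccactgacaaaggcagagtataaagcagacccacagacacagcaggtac
No match in the Pklr windows says only that these letters are not within them.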

How the data were processed

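The intensity used is the processed signal of the scanner software, which, per the file headers, was Agilent Feature Extraction 10.7.3.1 with spatial and multiplicative detrending and with surrogate values for dim spots, so that levels not well above background are partly set by the software. The 4 arrays shared 1 slide and 1 scan time. In the authors' table, deposited log2 values differed by -0.00236 to -0.00101 from the log2 intensity minus its array's 75th percentile (Pearson r = 1). Its own steps are not given in the sources used here.

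Processed signals were averaged per probe as log2 values after leaving out 1639 control spots and spots marked as outliers (18 probes lost), and the array's 75th percentile was subtracted. Tested were probes well above background in both samples of either group, each gene by its brightest such probe (16421 genes, 23462 probes). Groups were taken from the sample titles and compared with limma 3.58.1 (lmFit, eBayes, R 4.3.3, data.table package 1.17.8) with Benjamini-Hochberg adjustment over all genes or probes. The fit was also run on simulated data with far fewer changed genes than were called here. That run is therefore no support for the calls. The number of arrays limits the precision. Alternatives were normexp correction (offset 50), quantile, median and spike-in scaling (7 probes), the deposited values, other filters, probe means, eBayes with trend and robust, stricter thresholds, each array left out, and the replicate number as a block. Same-numbered samples did not deviate together (r = -0.16 across genes). The members and lists were chosen with earlier results of these data known. Named are all members, the other isozymes, the regulators, and the 2 genes of the other steps with the largest fold per direction, while Tpi1, Gapdh, Gpi1, Pgk1, Pgam1, Eno1 and Eno2 were added to complete the steps after their values were seen. Results of some other isozymes are not reported here.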

Additional observations from a re-analysis of the deposited data

How the results depend on the processing

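Hk2, Pfkl, Aldoa, Aldoc and Pkm2 kept their direction and their call under every alternative in which they were tested (Hk2 was not tested among probes well above background on all arrays). Of the values of single isozymes under the alternatives, 98 kept direction and side of the threshold, 7 lost the call (all of Hk1), 1 gained it (Pklr) and 5 reversed. The block, the other filters and the trended, robust variance left the log2 fold of each tested isozyme as it was. The deposited values nearly did so too, so direction could not turn under these alternatives. The reversed log2 folds were those of Pfkp with spike-in scaling (-1.22) and the mean of its probes (-0.24). On leaving out arrays, those of Pfkp (-0.29 to 0.51) and Pklr (-0.22 to 0.16) also turned sign. Over all genes, 5380 were called higher in E13 hepatoblasts and 5266 higher in adult hepatocytes, against 11660 and 1906 with spike-in scaling (median log2 fold -1.34) and 4541 and 6640 with normexp correction (median 0.21).

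The count of isozymes called higher in E13 hepatoblasts ran from 5 to 8 over the alternatives. Of the pathway lists, 17 genes were called higher in E13 hepatoblasts and 2 higher in adult hepatocytes with spike-in scaling, 7 higher in E13 hepatoblasts at an adjusted p under 0.01, and 7 to 11 on leaving out each array. Of the isozymes' probes, 7 were called higher in E13 hepatoblasts among probes well above background on all arrays, where fewer were tested, and 1 was called higher in adult hepatocytes with normexp correction (Pfkp) and 1 without a filter (Aldoc).

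Normexp correction gave shifts of 2.20 for Hk1 minus Hk2, 0.080 for Aldoa minus Aldoc and 2.29 for Pklr minus Pkm2 (fitted values, as are those that follow, against 5.69, 0.19 and 3.27). Quantile normalization gave 6.26 for Hk1 minus Hk2 and -0.29 for Aldoa minus Aldoc. The mean of a gene's probes gave 4.34 for Hk1 minus Hk2 and 3.71 for Pklr minus Pkm2. The cause of these moves was not tested.

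With the replicate number as a block, 5 isozymes, 9 of their probes and 8 genes of the lists were called higher in E13 hepatoblasts, and 0, 0 and 5 higher in adult hepatocytes. A crossed pairing, added after the data were examined, gave 5, 10 and 10, and 0, 0 and 5. Of the isozymes, the block changed the call of Hk1 only (limma adjusted p = 0.118). Genes dim in 1 group have only a bound there, and groups of 2 arrays were not examined for samples that stand apart.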
